A study of Mus musculus with 8 samples.

Results

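The genes described here are 10 that encode microtubule-associated proteins (MAPs) and stathmins, namely Map1a, Map1b, Map2, Mapt, Map4, Map6, Map7, Stmn1, Stmn2 and Stmn3. They were taken by symbol from a table of 31417 Ensembl genes, all 10 were found, and all 10 passed the filter on low counts that left 16228 genes for testing. The table came from bulk hippocampus of mice at 12 months of age, sequenced as stranded poly(A) RNA, with 4 libraries from Dclk3 knockout (KO) mice and 4 from wild-type (WT) mice. Dclk3 encodes a kinase of the doublecortin family, some of whose relatives bind microtubules, and the study compared hippocampal expression with and without it. Each library came from a single hippocampus. The labels do not say which part of Dclk3 was removed, nor do they name the strain, sex or litter. They also do not say that the 4 libraries of a genotype came from different animals, so the p-values refer to variation from library to library, which may in part be technical.

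Microtubules are hollow polymers of tubulin that grow and shrink, and in neurons they form the tracks of axons and dendrites. MAPs bind along the polymer and stabilise it, cross-link it or recruit motors to it, while stathmins bind free tubulin and favour disassembly. In mature neurons Map2 protein is concentrated in dendrites and cell bodies and tau, the product of Mapt, in axons, and the balance of stabilising and destabilising proteins is one of the ways in which neurons shape their processes.

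Counts per gene are only as specific as the sequences they are counted on, so coding stretches of the family are shown first. In the GRCm38 (mm10) annotation of GENCODE M21, the coding sequence of Stmn1 has 450 bases, and Gm11223, a processed pseudogene elsewhere on chromosome 4, copies all 450 of them with 1 mismatch. The 60 coding bases that hold this mismatch and are most alike in Stmn2 and Stmn3 are shown for Stmn1 (chr4:134472858-134472917, plus strand), Gm11223 (chr4:69925780-69925839, minus strand), Stmn2 (chr3:8554846-8554905, plus strand) and Stmn3 (chr2:181307294-181307353, minus strand). Each stretch lies within 1 exon. Capitals mark bases that differ from Stmn1.
Stmn1: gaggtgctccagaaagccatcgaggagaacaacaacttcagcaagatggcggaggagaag
Gm11223: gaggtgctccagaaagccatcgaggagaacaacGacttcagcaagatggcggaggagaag
Stmn2: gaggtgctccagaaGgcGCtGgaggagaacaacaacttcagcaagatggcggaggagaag
Stmn3: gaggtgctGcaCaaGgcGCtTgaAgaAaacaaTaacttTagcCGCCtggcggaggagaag
The pseudogene differs from Stmn1 at 1 of these 60 bases (A34G, counted from the first base shown), Stmn2 at 4 and Stmn3 at 14. Of all windows of 50 bases in annotated Stmn1 transcripts, 18.9% were also found in transcripts of another gene, and 12.8% of windows of 100 bases. Stmn3, Map1b, Mapt and Map6 shared no window of 50 bases with any other annotated gene, and the other 5 genes shared between 0.166% and 2.41%. Counts of Stmn1 are therefore uncertain, because the rule for reads that fit 2 places is not stated in those sources.

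Mapt, Map2 and Map4 form a second family, whose proteins share microtubule-binding repeats near their C-terminal ends. The 60 coding bases of Mapt most alike in both relatives lie in the first of these repeats, and they are shown as the stretch where counts of the 3 genes could most readily be confused. Their positions are chr11:104310462-104310521 for Mapt, chr1:66425456-66425515 for Map2 and chr9:110068913-110068972 for Map4, all on the plus strand and each within 1 exon. Capitals mark bases that differ from Mapt.
Mapt: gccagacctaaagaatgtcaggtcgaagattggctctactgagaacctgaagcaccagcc
Map2: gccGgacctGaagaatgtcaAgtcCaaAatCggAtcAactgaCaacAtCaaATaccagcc
Map4: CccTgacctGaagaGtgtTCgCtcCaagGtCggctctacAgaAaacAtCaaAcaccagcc
Even here Map2 differs from Mapt at 13 of 60 bases and Map4 at 15, an identity of 78.3% and 75% over the stretch. These genes are spliced into many isoforms, with 24 annotated transcripts of Map2, 17 of Map4 and 12 of Mapt, and counts per gene do not separate them. On the opposite strand, exons of Ppip5k1 overlap Map1a by 272 bp, those of Gm10558 overlap Map2 by 124 bp and those of Gm48249 overlap Map7 by 332 bp, and use of strand in counting is not stated. Over the 8 libraries Ppip5k1 held 29426 counts beside 486326 for Map1a, and Gm48249 held 75 beside 19006 for Map7.

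Libraries held 29301974 to 36552757 counts, and the 10 genes together took 0.663% to 0.838% of the counts in KO libraries and 0.680% to 0.787% in WT libraries. Dclk3 stood at 8.19, 9.29, 5.92 and 7.45 CPM in KO libraries and at 23.04, 39.3, 20.8 and 23.5 CPM in WT libraries, where CPM are counts scaled to a library size of 1e6. It was lower in every KO library, with means of 7.71 ± 1.42 CPM in KO and 26.7 ± 8.51 CPM in WT (mean ± SD, n = 4 each; exact two-sided permutation p = 0.0286, the smallest that 4 against 4 allows). edgeR's adjusted p for Dclk3 over all genes was 0.234. With a library left out it ran from 0.0121 without WT replicate 2, the highest of the WT libraries, to 0.997 without KO replicate 1, and the other 6 fits gave 0.123 to 0.80. All CPM values were scaled with the trimmed mean of M-values (TMM). Defining markers of hippocampal cell types were present in every library. Summed levels of 12 dentate granule cell markers were 892 to 1029.8 CPM in KO and 776 to 895 CPM in WT, and those of 9 CA1 markers 1018 to 1237 CPM in KO and 1127 to 1304 CPM in WT. All 12 dentate markers had a log2 fold change of KO over WT above 0 (median 0.21), and all 9 CA1 markers had one below 0 (median -0.13). Over all tested genes 50.1% lay above 0 and 49.9% below. None of these markers was called by edgeR. The part of such differences in the levels of the 10 genes was not tested.

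None of the 10 genes passed edgeR's quasi-likelihood test of KO against WT at an adjusted p under 0.05. No gene in the table did (0%), including Dclk3, and the lowest adjusted p among the 10 was 0.796. DESeq2 called 0.0321% of genes and none of the 10. At an unadjusted p under 0.05 edgeR gave 1 of the 10 genes, Map7, where 6.16% of all tested genes reached that level and 3.96% did so with higher values in KO. KO and WT libraries did not overlap in 3.8% of tested genes and in none of the 10. Fitted log2 fold changes were below 0 for 7 genes and above 0 for 3, with a median of -0.040, and the median over all tested genes was 0.00029. The median of the 10 was -0.0077 without KO replicate 1, -0.11 without KO replicate 4 and -0.095 with limma-voom. The number below 0 was 6 to 8 when a library was left out or another setting was used. In bulk tissue fewer cells of a type and less RNA per cell cannot be told apart in any of these levels.

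**Figure D1:**
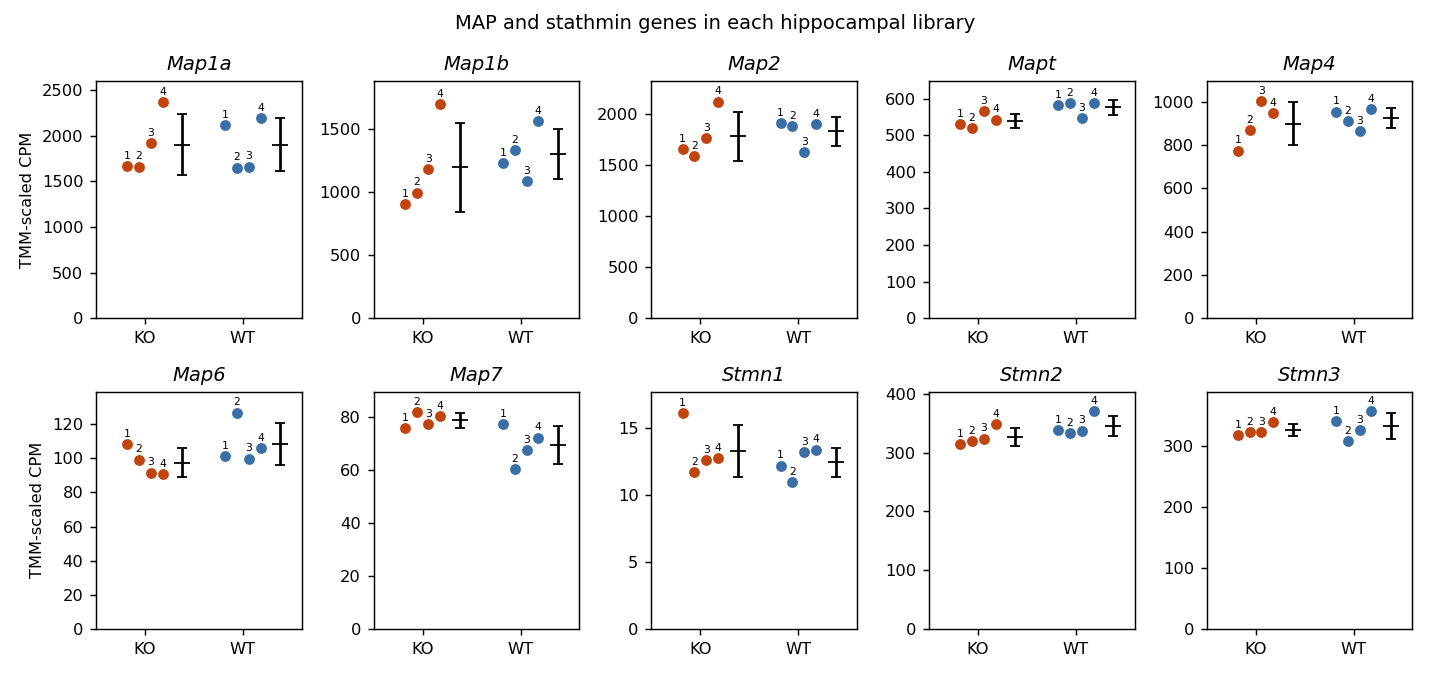
TMM-scaled CPM of each of the 10 genes in 4 KO libraries (orange) and 4 WT libraries (blue), with replicate numbers above the points and mean ± SD as black bars; each vertical axis starts at 0. The genotypes overlap in every panel, and the widest spread is that of Map1b in KO, between 905 and 1702 CPM.

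The large MAPs of the first class, Map1a and Map1b, encode long proteins that are cleaved into heavy and light chains and bind along neuronal microtubules. Map1a (ENSMUSG00000027254, mm10 chr2:121289600-121310832) is the adult form in mature neurons, and Map1b (ENSMUSG00000052727, chr13:99421446-99516540) is prominent in growing axons and remains in the adult brain. Map1a stood at 1665, 1661, 1920.3 and 2367 CPM in KO replicates 1 to 4, and at 2113, 1649.7, 1661 and 2189 CPM in WT replicates 1 to 4. KO replicate 4 was the highest of the 8 libraries and WT replicate 2 the lowest, so that the genotypes overlapped over nearly their whole range. The means were 1903 ± 332 CPM in KO and 1903 ± 288 CPM in WT (SD, n = 4 each), with a log2 fold change of 0.00019 ± 0.14 (SE; adjusted p = 0.999973 in edgeR). Its 95% interval ran from 0.810-fold to 1.24-fold.

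Map1b stood at 905, 998, 1185 and 1702 CPM in KO replicates 1 to 4, and at 1233, 1335, 1089.8 and 1566 CPM in WT replicates 1 to 4. Its KO libraries held both the lowest and the highest value of all 8. The means were 1198 ± 356 CPM in KO and 1306 ± 200.2 CPM in WT, with a log2 fold change of -0.13 ± 0.19 (SE; adjusted p = 0.912 in edgeR) and a 95% interval from 0.679-fold to 1.24-fold. This was the widest interval among the 10 genes, and the coefficient of variation (CV) of Map1b was 29.7% among KO libraries and 15.3% among WT libraries, beside a typical biological CV of 13.3% over tested genes. Without KO replicate 4 the log2 fold change of Map1b was -0.34 (edgeR adjusted p = 0.411), and without KO replicate 1 it was -0.0091.

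Map2 (ENSMUSG00000015222, chr1:66175273-66442583), whose protein spaces and stabilises dendritic microtubules, stood at 1657, 1588, 1764 and 2125 CPM in KO and at 1913, 1884.5, 1625 and 1905 CPM in WT. KO replicate 4 lay above all WT libraries, while KO replicate 2 lay below them. The means were 1783 ± 239 CPM in KO and 1832 ± 138 CPM in WT, with a log2 fold change of -0.039 ± 0.099 (SE; adjusted p = 0.953 in edgeR).

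Mapt (ENSMUSG00000018411, chr11:104231390-104332090), which encodes tau, stood at 531, 520.2, 565 and 543 CPM in KO and at 582, 588, 546 and 588 CPM in WT. KO libraries 1, 2 and 4 lay below every WT library, and KO replicate 3 lay above WT replicate 3. The means were 539.7 ± 19.4 CPM in KO and 576 ± 20.2 CPM in WT, with a log2 fold change of -0.094 ± 0.058 (SE; adjusted p = 0.797 in edgeR; exact two-sided permutation p = 0.0571). Its CV was 3.59% in KO and 3.50% in WT, and the 95% interval ran from 0.857-fold to 1.03-fold, one of the narrowest of the 10.

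Map4 (ENSMUSG00000032479, chr9:109931460-110083955), the MAP of this family found widely outside neurons, stood at 775, 869, 1003.5 and 946 CPM in KO and at 955, 913, 865 and 965 CPM in WT. The 4 WT values lay inside the range of the KO values. The log2 fold change was -0.041 ± 0.085 (SE; adjusted p = 0.941 in edgeR), with means of 898 ± 99.0 CPM in KO and 924 ± 45.6 CPM in WT. Map4 is the gene of the 10 that shares a chromosome with Dclk3 (chr9:111439081-111489118), at a distance of 1.36 Mb.

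Map6 (ENSMUSG00000055407, chr7:99267447-99337137) encodes a protein that protects microtubules against cold-induced disassembly. It stood at 109, 99.2, 91.6 and 90.7 CPM in KO and at 101, 127, 99.8 and 106 CPM in WT. KO replicates 2, 3 and 4 lay below all WT libraries and KO replicate 1 lay among them. The means were 97.5 ± 8.28 CPM in KO and 108 ± 12.5 CPM in WT, with a log2 fold change of -0.15 ± 0.089 (SE; adjusted p = 0.796 in edgeR) that was -0.067 without WT replicate 2.

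Map7 (ENSMUSG00000019996, chr10:20148471-20281590) encodes ensconsin, which binds the microtubule lattice and recruits the motor kinesin-1. It stood at 76.0, 82.0, 77.4 and 80.5 CPM in KO and at 77.5, 60.6, 67.7 and 72.4 CPM in WT. WT replicates 2, 3 and 4 lay below every KO library, and WT replicate 1 lay between KO values. The means were 79.0 ± 2.78 CPM in KO and 69.5 ± 7.19 CPM in WT (log2 fold change 0.18, SE 0.075, edgeR adjusted p = 0.796; exact two-sided permutation p = 0.0857). The unadjusted edgeR p was 0.0330, which ranked Map7 at 646 of the 16228 genes. It was between 0.0515 and 0.0775 with KO replicate 2, 3 or 4 or WT replicate 2 or 3 left out, and 0.00868 without WT replicate 1.

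**Figure D2:**
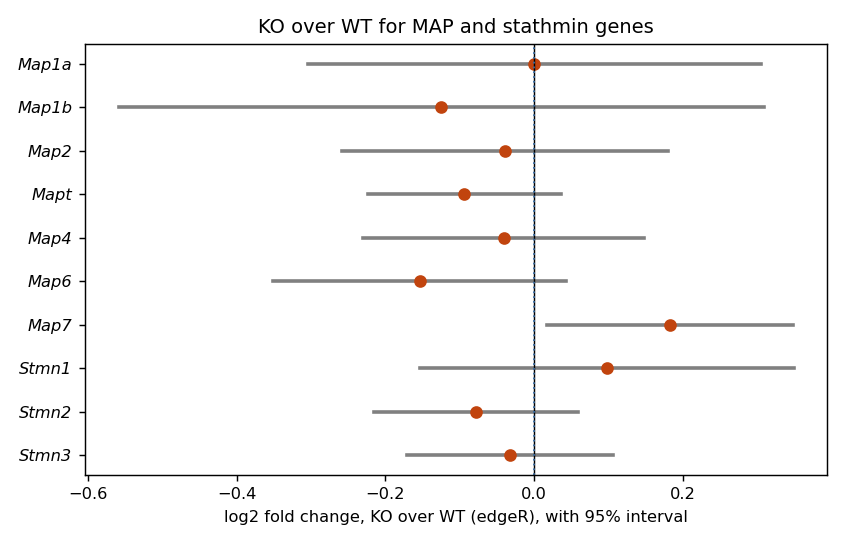
Log2 fold change of KO over WT for each of the 10 genes (points) with its unadjusted 95% interval (bars) from edgeR; the solid line is 0 and the dotted line the median of all tested genes. The Map7 interval, from 0.018 to 0.35 in log2 (1.01-fold to 1.27-fold), is the one that does not include a log2 fold change of 0, and the Map1b interval is the widest.

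Stathmin 1, the product of Stmn1 (ENSMUSG00000028832, chr4:134468320-134473843), is the cytosolic founder of the stathmin family and is abundant in progenitors and young neurons. Its 8 libraries held 352 to 594 counts, and Gm11223 held 1 to 13 counts. Stmn1 stood at 16.2, 11.7, 12.6 and 12.8 CPM in KO and at 12.2, 10.97, 13.2 and 13.4 CPM in WT. KO replicate 1 was the highest of the 8 and the other KO libraries lay within the WT range. The means were 13.3 ± 1.96 CPM in KO and 12.4 ± 1.11 CPM in WT, with a log2 fold change of 0.098 ± 0.11 (SE; adjusted p = 0.880 in edgeR) that was -0.0064 without KO replicate 1.

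Stmn2 (ENSMUSG00000027500, chr3:8509360-8561606) and Stmn3 (ENSMUSG00000027581, chr2:181306459-181314500) encode neuronal stathmins that are anchored to membranes by an added N-terminal part. Stmn2 stood at 314, 319, 324 and 348 CPM in KO and at 338, 333, 337 and 371 CPM in WT. KO replicates 1 to 3 lay below every WT library and KO replicate 4 lay among them. The means were 326 ± 14.96 CPM in KO and 345 ± 17.4 CPM in WT, with a log2 fold change of -0.079 ± 0.062 (SE; adjusted p = 0.826 in edgeR) and a 95% interval from 0.861-fold to 1.04-fold. Without WT replicate 4, the highest library, the log2 fold change was -0.043, and without KO replicate 4 it was -0.11.

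Stmn3 stood at 318, 324, 323 and 340.3 CPM in KO and at 341, 309, 327 and 358 CPM in WT. All KO values lay inside the WT range. The means were 326 ± 9.61 CPM in KO and 334 ± 21.0 CPM in WT, with a log2 fold change of -0.033 ± 0.063 (SE; adjusted p = 0.936 in edgeR).

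Levels between genes were compared as CPM per kb of merged exons. Stmn3 was highest, at 287 ± 8.46 CPM per kb in KO and 294 ± 18.5 in WT, followed by Map1a at 156 ± 27.3 in KO and 156 ± 23.6 in WT, and by Map2 at 108 ± 14.5 in KO and 111 ± 8.41 in WT. Map1b had 75.6 ± 22.5 CPM per kb in KO and 82.4 ± 12.6 in WT, Mapt 71.7 ± 2.57 in KO and 76.5 ± 2.68 in WT. The order of Map1b and Mapt was not stable, since Map1b was the higher of the pair in 4 of 8 libraries. Stmn2 and Map4 came next, at 58.3 ± 2.67 and 59.3 ± 6.54 CPM per kb in KO and at 61.5 ± 3.11 and 61.0 ± 3.01 in WT, and these neighbours also overlapped. A gap of several-fold set off the last 3 genes. Map6 had 10.7 ± 0.905 CPM per kb in KO and 11.9 ± 1.36 in WT, Map7 9.95 ± 0.350 in KO and 8.76 ± 0.906 in WT, and Stmn1 6.92 ± 1.02 in KO and 6.48 ± 0.578 in WT. With the longest transcript as the length, Map2 moved next to Stmn3, at 285 ± 38.2 CPM per kb in KO and 293 ± 22.1 in WT, and Map4 moved above Mapt, while Map6, Map7 and Stmn1 stayed last. The low place of Stmn1 is as uncertain as its counts, since the treatment of reads that also fit Gm11223 is not stated.

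**Figure D3:**
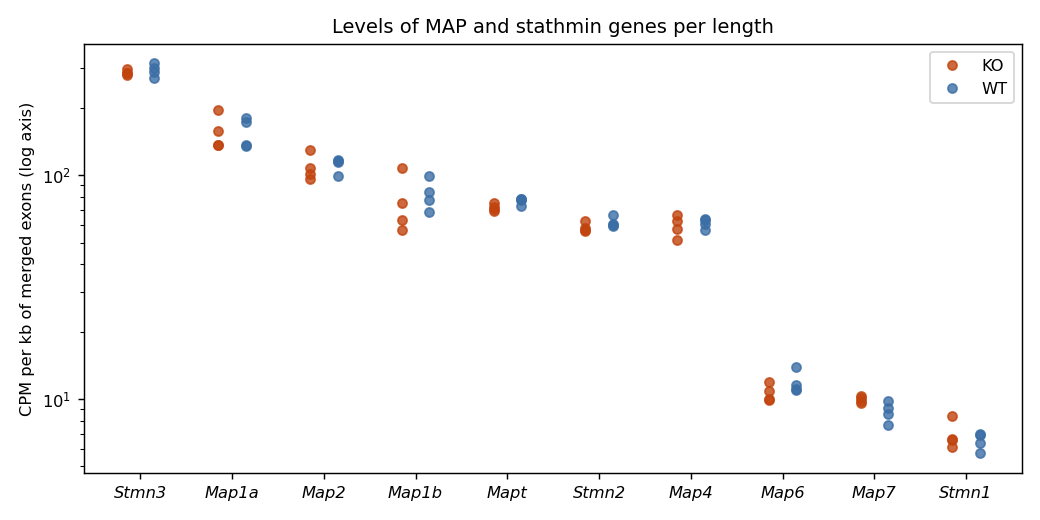
CPM per kb of merged exons, on a log axis, for each of the 10 genes in 4 KO libraries (orange) and 4 WT libraries (blue), ordered by the WT mean. Stmn3 lies highest, between 272 and 316 CPM per kb, and Map6, Map7 and Stmn1 all lie below 14 CPM per kb. The level of Stmn1 is uncertain because of its copy Gm11223.

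Correlations between the genes over the 8 libraries had both signs. Of the 45 pairs, 27 had a Pearson r of log2 CPM above 0, and r ranged from -0.78 for Map6 with Map7 to 0.90 for Map1b with Map2. For Map1b with Map2 r was 0.90 (exact permutation p = 0.00228, adjusted p = 0.103 over 45 pairs), Spearman's rho was 0.86 (exact permutation p = 0.0107, adjusted p = 0.241), r was 0.86 without the 2 libraries farthest from the Map1b median, and r was 0.90 for deviations from the genotype means. No pair passed an adjusted p under 0.05 by either measure, and 9 pairs had an unadjusted p under 0.05 for Pearson's r. All 21 pairs among the 7 genes other than Map6, Map7 and Stmn1 had a positive r, from 0.29 to 0.90, and from 0.17 to 0.90 after centring on the genotype means. This grouping was made after the values were seen, so the shared sign is in part a result of the choice. Without the 2 farthest libraries r was -0.13 for Mapt with Stmn3 and 0.23 for Mapt with Stmn2, and it stayed positive for the other pairs of the 7. For Map6 with Map7 r was -0.78 (exact permutation p = 0.0272, adjusted p = 0.175; rho -0.69, exact permutation p = 0.0694, adjusted p = 0.431), and -0.21 without the 2 farthest libraries. Stmn2 and Stmn3 had an r of 0.82 (exact permutation p = 0.0147, adjusted p = 0.132; rho 0.81, exact permutation p = 0.0218, adjusted p = 0.327), which was 0.54 without the 2 farthest libraries.

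Libraries also differed in how much they held of long transcripts in general. The median centred log2 CPM of 919 tested genes with an annotated transcript of at least 8 kb, Map1a and Map1b left out, was -0.14, -0.096, -0.0063 and 0.17 in KO replicates 1 to 4, and -0.0035, 0.025, -0.048 and 0.089 in WT replicates 1 to 4. For 3669 genes with transcripts under 2 kb it was 0.094, 0.057, -0.0064 and -0.067 in KO replicates 1 to 4, and 0.045, -0.068, 0.0032 and -0.029 in WT replicates 1 to 4. The order of the 8 libraries by Map1b was the same as their order by this long-transcript score. Over the 8 libraries r between Map1b and the score was 0.99 (exact permutation p = 2.48e-05, the smallest possible; adjusted p = 0.000248 over 10 genes), rho was 1 (exact permutation p = 4.96e-05, adjusted p = 0.000496), r was 0.99 without the 2 farthest libraries and 0.99 within genotypes. For Map2 r was 0.91 (exact permutation p = 0.00196, adjusted p = 0.0098; rho 0.86, exact permutation p = 0.0107, adjusted p = 0.0357) and 0.86 without the 2 farthest libraries.

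Map1a and Stmn2 also had an adjusted p under 0.05 for r with the long-transcript score. Map1a had an r of 0.82 (exact permutation p = 0.0116, adjusted p = 0.0388), but a rho of 0.57 (exact permutation p = 0.151, adjusted p = 0.252) and an r of 0.66 without the 2 farthest libraries. Stmn2, whose longest transcript has 3413 bases, had an r of 0.79 (exact permutation p = 0.0195, adjusted p = 0.0488), a rho of 0.86 (exact permutation p = 0.0107, adjusted p = 0.0357) and an r of 0.82 without the 2 farthest libraries. The other 6 genes had r from -0.32 for Stmn1 to 0.71 for Map4, and none had an adjusted p under 0.05. With the score as a covariate, an alternative chosen after seeing the data, the log2 fold change was -0.051 for Map1b (edgeR adjusted p = 0.846), 0.052 for Map1a (edgeR adjusted p = 0.924), -8.34e-05 for Map2 (edgeR adjusted p = 0.9995) and 0.19 for Map7 (edgeR adjusted p = 0.633). With the score of 12 neuron markers, r was 0.77 for Map1b (exact permutation p = 0.0267, adjusted p = 0.587 over 110 relations; rho 0.74, exact permutation p = 0.0458, adjusted p = 0.762), and 0.42 without the 2 farthest libraries. For Map4 r was 0.90 (exact permutation p = 0.00246, adjusted p = 0.259; rho 0.79, exact permutation p = 0.0279, adjusted p = 0.762), 0.69 without the 2 farthest libraries and 0.96 within genotypes. For Mapt r was 0.85 (exact permutation p = 0.00794, adjusted p = 0.291; rho 0.93, exact permutation p = 0.00223, adjusted p = 0.246), 0.78 without the 2 farthest libraries and 0.80 within genotypes. The part of transcript length, RNA quality or neuron content in these values was not tested.

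**Figure D4:**
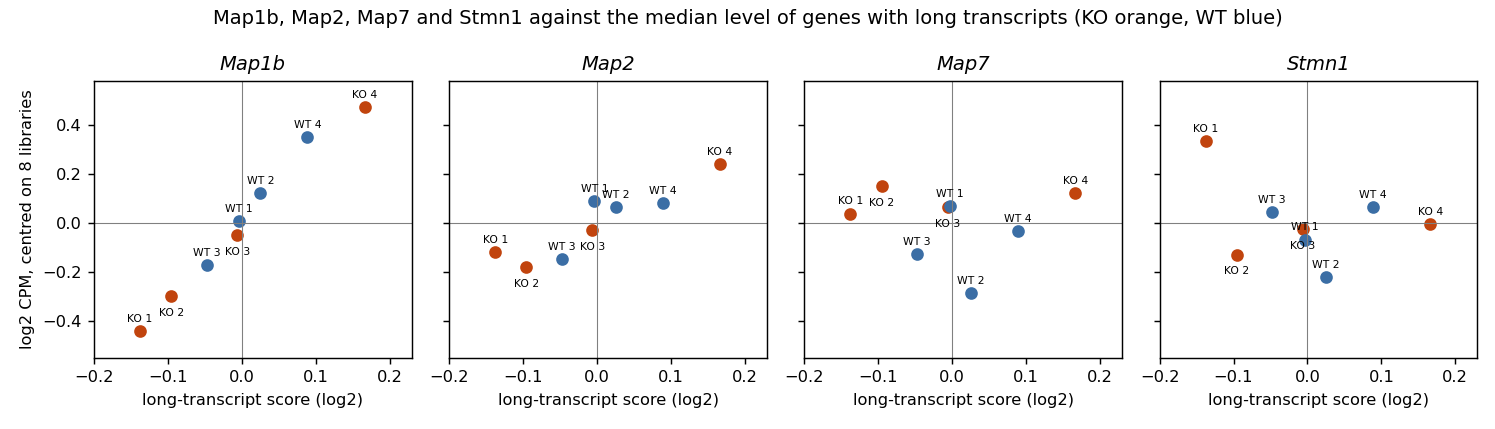
Log2 CPM of Map1b, Map2, Map7 and Stmn1, each centred on its mean over 8 libraries (vertical axis), against the long-transcript score of each library (horizontal axis, log2), for KO (orange) and WT (blue). For Map1b, KO replicate 1 is lowest and KO replicate 4 highest on both axes (r = 0.99), while r is -0.039 for Map7 and -0.32 for Stmn1.

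Map7 was set against 11 marker lists, and its highest r over the 8 libraries were with oligodendrocyte and dentate granule cell markers. Within genotypes its r with GABA neuron markers was 0.72, above that with granule cell markers. Over the 8 libraries r with GABA neuron markers was -0.13. Oligodendrocytes form the myelin of the brain, and their 12 markers, among them Mbp, a myelin protein gene, summed to 4644 to 5224 CPM in KO and 3808 to 5438 CPM in WT. All 12 lay above 0 on the log2 fold change scale (median 0.15), where 50.1% of all tested genes lay above 0. That median was 0.093 without WT replicate 3 and 0.24 without WT replicate 1. None of the 12 passed edgeR's test. Over the 8 libraries Map7 had an r of 0.86 with their score (exact permutation p = 0.00471, adjusted p = 0.259 over 110 relations; rho 0.88, exact permutation p = 0.00724, adjusted p = 0.398), which was 0.59 without the 2 farthest libraries and 0.81 within genotypes. With 12 dentate granule cell markers, all of which also had a log2 fold change above 0 (median 0.21), r was 0.76 (exact permutation p = 0.0262, adjusted p = 0.587; rho 0.67, exact permutation p = 0.0831, adjusted p = 0.762), which was 0.75 without the 2 farthest libraries and 0.51 within genotypes. For each list the 2 farthest libraries were chosen by its own score. They were WT replicates 2 and 3 for oligodendrocyte markers, and KO replicate 4 and WT replicate 3 for granule cell markers. The values of 0.59 and 0.75 thus come from different sets of libraries, and the lists cannot be ranked by them. None of the 110 relations between the 10 genes and the marker lists passed an adjusted p under 0.05. The part of oligodendrocyte or granule cell content in the Map7 values was not tested.

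**Figure D5:**
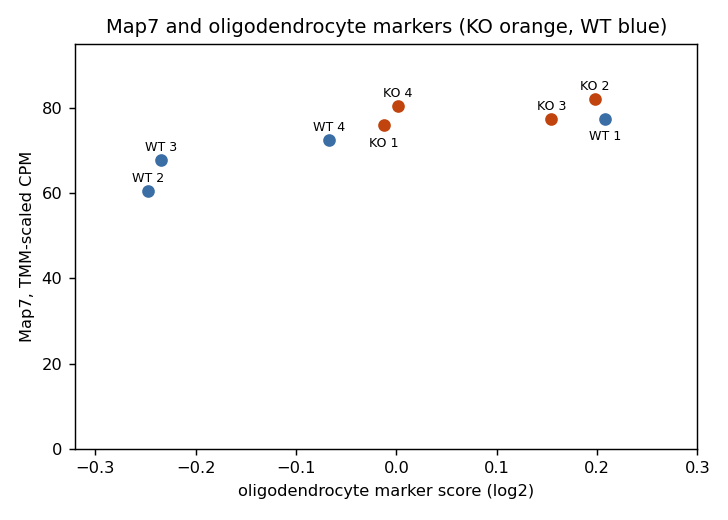
Map7 in TMM-scaled CPM (vertical axis, from 0) against the mean centred log2 CPM of 12 oligodendrocyte markers (horizontal axis) in 4 KO libraries (orange) and 4 WT libraries (blue). WT replicates 2 and 3 are lowest on both axes, with Map7 at 60.6 and 67.7 CPM.

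The genes whose log2 CPM ran most like those of Map7, Map6 and Mapt over the 8 libraries were picked from all tested genes, so their high r is a result of the choice and is given as a description. They were Taf8 (r = 0.98) and Gpr157 (r = 0.98) for Map7, Ephx2 (r = 0.98) and Doc2a (r = 0.98) for Map6, and Prune1 (r = 0.99) and Eif2b4 (r = 0.98) for Mapt.

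Other genes of microtubule regulation showed no call either. Of 25 tested genes among other MAPs and stathmins, 17 lay below 0 and 8 above it (median log2 fold change -0.021), and edgeR called 0. Over all tested genes 49.9% lay below 0. Leaving out a library moved the median to between -0.057 (KO replicate 3) and -0.012 (WT replicate 4). At an unadjusted p under 0.05 there were 2, both lower, where 2.2% of all tested genes were lower at that level. They were Ndel1, a dynein regulator, at 73.2 ± 3.08 CPM in KO and 80.4 ± 2.38 CPM in WT, and Crmp1, a collapsin response mediator that binds tubulin, at 238 ± 18.1 CPM in KO and 273 ± 29.7 CPM in WT. KO libraries lay below all WT libraries for Ndel1, as they or their reverse did in 3.8% of all tested genes.

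Proteins that track growing plus ends were represented by 18 tested genes, 3 above and 15 below 0, where 49.9% of all tested genes lay below 0. At an unadjusted p under 0.05 there were 2, both lower, where 2.2% of all tested genes were lower at that level. The median log2 fold change of the 18 was -0.064, and edgeR called 0. With KO replicate 1 left out that median was -0.027, and with KO replicate 4 left out it was -0.13. Clip4, a CAP-Gly domain protein, stood at 58.9 ± 3.99 CPM in KO and 68.7 ± 0.625 CPM in WT (log2 fold change -0.22, SE 0.058, edgeR adjusted p = 0.796), and all KO libraries lay below all WT libraries. It was the 1 gene of the 18 without overlap, beside 3.8% of all tested genes. Clip2 stood at 174 ± 5.59 CPM in KO and 194 ± 13.1 CPM in WT, with overlap. The 21 genes of minus ends and nucleation had 9 above and 12 below 0 (median -0.024), the 9 severing genes 3 above and 6 below (median -0.061), and neither list had a gene with an unadjusted p under 0.05. The median of the severing genes was 0.0033 without KO replicate 3, and that of minus-end and nucleation genes ran from -0.036 without KO replicate 3 to -0.0068 without WT replicate 4.

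Enzymes that modify tubulin were represented by 22 tested genes, 10 above and 12 below 0, with a median of -0.028, and edgeR called 0. At an unadjusted p under 0.05 there were 2 higher and 2 lower, where 3.96% of all tested genes were higher and 2.2% lower at that level. With a library left out the median ran from -0.047 without KO replicate 3 to -0.0038 without WT replicate 2. Ttll3, a tubulin glycylase, stood at 9.29 ± 1.29 CPM in KO and 7.29 ± 0.766 CPM in WT, with every KO library above every WT library. Lrrc49, a part of the tubulin polyglutamylase complex, stood at 53.0 ± 2.41 CPM in KO and 58.7 ± 1.69 CPM in WT, with every KO library below every WT library. Agbl3, a deglutamylase, stood at 7.53 ± 0.999 CPM in KO and 6.20 ± 0.415 CPM in WT. Agbl4, another deglutamylase, named here after its values were seen, stood at 8.71 ± 0.316 CPM in KO and 9.99 ± 0.532 CPM in WT, also with every KO library below every WT library. The genotypes were without overlap in 3 of the 22 genes and in 3.8% of all tested genes.

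Kinases and phosphatases that act on tau and other MAPs were represented by 33 tested genes, of which 29 lay below 0 and 4 above it (median log2 fold change -0.071), where 49.9% of all tested genes lay below 0. edgeR called 0 of them, and 4 had an unadjusted p under 0.05, all lower, where 2.2% of all tested genes were lower at that level. Ppp2r2b, a regulatory subunit of phosphatase 2A enriched in neurons, stood at 98.3 ± 1.90 CPM in KO and 108 ± 3.14 CPM in WT, and Ppp2r1a, the scaffold subunit, at 623 ± 46.6 CPM in KO and 704 ± 37.7 CPM in WT. Cdk5r1, the p35 activator of the kinase Cdk5, stood at 258 ± 6.54 CPM in KO and 282 ± 11.6 CPM in WT. KO libraries lay below WT libraries without overlap for Ppp2r2b, Cdk5r1 and Prkaca, a catalytic subunit of protein kinase A named here after its values were seen, which makes 3 of 33 genes beside 3.8% of all tested genes without overlap in either direction. Neuron markers lay on the same side, with 11 of 12 below 0 and a median of -0.077 (-0.049 without KO replicate 1 and -0.13 without KO replicate 4). Their summed level was 14860 to 16324 CPM in KO and 14952 to 16680 CPM in WT. Camk2a, which is in both lists, was the neuron marker above 0 (log2 fold change 0.11). It held 6074 ± 220 CPM of this sum in KO and 5618 ± 642 CPM in WT, so the sum and the count of signs differ in weight. The kinase and phosphatase median stayed between -0.091 and -0.045 when each library was left out in turn, and the part of neuron content in it was not tested.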

How the data were processed

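Whole-number counts per Ensembl gene were deposited by the authors as raw counts, 1 column per library, without normalization. The submitters' processing notes name bcl2fastq 2.17.1.14 and mm10. For the aligner, the counter, its annotation and its use of strand, nothing is stated in the sources used here. Symbols were found for 31292 IDs and 125 had none; positions and lengths came from GENCODE M21 (GRCm38). The genotypes were compared in edgeR 4.0.16 (R 4.3.3) with TMM scaling, filterByExpr at a minimum count of 10 and glmQLFit with robust estimation; p-values from the quasi-likelihood test were adjusted over 16228 genes after Benjamini and Hochberg. SE was the log2 fold change divided by the square root of F. Log2 CPM used a prior count of 2. The 10 genes, the gene lists and the tests were chosen with earlier results of these data known. Genes were named by rule: the 10, Dclk3, up to 3 genes per pathway list by lowest p, up to 2 per marker list by level, and the 2 of most like pattern for the 3 of the 10 with the lowest p; some genes that the rule names are not reported here. Alternatives were DESeq2 1.42.0, limma 3.58.1 (voom), other scalings, filters, a replicate block, a covariate and left-out libraries. The pipeline was tested on simulated data. No 2 libraries of a genotype agreed within sampling noise (chi-square per degree of freedom 8.85 to 40.9). Intervals rest on the spread between libraries. PCR reads are not independent molecules. At these depths 1 count was 0.0274 to 0.0341 CPM before TMM scaling.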

Additional observations from a re-analysis of the deposited data

Results flagged for a closer look

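Of 136 groups of 4 libraries examined, 9 had 1 library far from the other 3, in that its gap to the nearest of them, divided by the group's range, exceeded Dixon's 95% critical value; chance flags about 1 group in 20. For Map2 the ratio was 0.899 in WT, where replicate 3 stood at 1625 CPM and the others at 1885 to 1913 CPM. For Mapt it was 0.845 in WT, where replicate 3 stood at 546 CPM and the others at 582 to 588 CPM. For Stmn2 it was 0.868 in WT, where replicate 4 stood at 371 CPM and the others at 333 to 338 CPM. For Dclk3 it was 0.858 in WT, with replicate 2 highest. Among other named genes the ratio was 0.878 for Ttll3 in WT (replicate 4) and 0.838 for Ppp2r2b in KO (replicate 4). Among summed lists it was 0.872 for severing genes in WT (replicate 2), 0.831 for immature neuron markers in WT (replicate 2) and 0.9 for microglia markers in KO (replicate 4).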

How the results depend on the processing

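Under each of 16 alternatives, 8 of them leaving out a library, none of the 10 genes was called, and Map1b, Mapt, Map6, Map7 and Stmn2 kept their direction. The direction of Map1a, whose main value is 0.00019, was reversed at -0.00095 with DESeq2 size factors within edgeR, -0.00038 with no filter, -0.0056 with DESeq2, -0.11 with limma-voom and -0.0026 with the replicate block, and with a library left out it ran from -0.12 to 0.073. With a library left out Map2 ran from -0.14 to 0.015, Map4 from -0.0997 to 0.028, Stmn1 from -0.0064 to 0.16 and Stmn3 from -0.065 to 0.0020, each reversed in 1 fit; the cause was not tested. The count of genes called over the whole table, 0 in edgeR, was 5 with DESeq2, 1 with the replicate block, 6 with the long-transcript score as a covariate and 0 to 1 with a library left out. The 1000 genes at an unadjusted p under 0.05 were 1505 with limma-voom and 556 to 1777 with a library left out. Dclk3 was called with DESeq2 (log2 fold change -1.796, adjusted p = 5.25e-14) and the replicate block (-1.76, edgeR adjusted p = 0.00339), and its log2 fold change with a library left out ran from -1.89 to -1.54. With the longest transcript as length, mean CPM per kb was 106 for Map1b, 289 for Map2, 106 for Mapt, 149.6 for Map4, 20.9 for Map6, 17.5 for Map7, 12.2 for Stmn1 and 98.3 for Stmn2. By correlation over all genes the replicate numbers were not taken to pair the samples: same-numbered libraries had correlations of 0.14, 0.12, -0.22 and -0.014 between their deviations from the genotype means, and 1 of 4 KO libraries correlated best with its own number, although choroid plexus markers were highest in replicate 2 of both genotypes. Precision was limited by 4 libraries a genotype, with a median SE of 0.105 on the log2 scale over all tested genes.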

Other observations

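Other cell type markers gave the setting in which the MAP and stathmin genes were measured. The 12 markers of GABA neurons, the inhibitory cells of the hippocampus, summed to 1477 to 1527 CPM in KO and 1539 to 1677 CPM in WT, without overlap. Gad1, which makes the transmitter GABA, stood at 376 ± 11.48 CPM in KO and 432 ± 22.6 CPM in WT (SD, n = 4 each; log2 fold change -0.20, adjusted p = 0.796 by edgeR), with every KO library below every WT library. Of the 12 markers 9 lay below 0 on the log2 fold change scale, with a median of -0.13, and none was called. Over all tested genes 49.9% lay below 0. The genotypes were without overlap in 1 of the 12 markers and in 3.8% of all tested genes. The 3 above 0 were Vip, Pvalb and Dlx6os1, named after their values were seen. Vip stood at 23.7 ± 2.45 CPM in KO and 20.6 ± 1.66 CPM in WT (log2 fold change 0.20, adjusted p = 0.796 by edgeR). Vip and Gad1 were the markers of the list at an unadjusted p under 0.05, 1 in each direction. At that level 3.96% of all tested genes were higher and 2.2% lower.

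Choroid plexus, the tissue that makes cerebrospinal fluid and lies next to the hippocampus, varied most between libraries. Its 10 markers, Ttr the most abundant, summed to 193, 3498, 1132 and 249 CPM in KO replicates 1 to 4 and to 199.99, 2271, 916 and 78.5 CPM in WT replicates 1 to 4. In both genotypes replicate 2 was highest and replicate 3 next. Their median log2 fold change was 0.33, and -0.67 without KO replicate 2. Immature neuron markers summed to 293 to 316 CPM in KO and 298 to 439.6 CPM in WT, astrocyte markers to 7685 to 9112 CPM in KO and 7626 to 9126 CPM in WT, microglia markers to 685 to 793 CPM in KO and 634 to 741 CPM in WT. Oligodendrocyte precursor markers summed to 266 to 292 CPM in KO and 268 to 313 CPM in WT, and endothelial markers to 281 to 371 CPM in KO and 282 to 329 CPM in WT. No marker of these lists was called by edgeR.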
